A study of Homo sapiens with 31 samples.

Results

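B87+DMKG is the combined treatment of H460, an established line from a human lung carcinoma of the non-small cell type, with BAY87-2243 at 1 µM and dimethyl α-ketoglutarate at 5 mM for 6 h, and it is compared here with untreated Control cells. BAY87-2243 (B87) inhibits complex I of the mitochondrial respiratory chain, and dimethyl α-ketoglutarate (DMKG) is an ester that enters cells and yields α-ketoglutarate, an intermediate of the tricarboxylic acid (TCA) cycle. The comparison rests on the columns labelled B87+DMKG (n = 4) and Control (n = 4), which are 8 of the 31 poly(A) RNA libraries of the series. The series asked how several treatments affect transcription in the setting of cell death. B87 alone at 1 µM (n = 4) and DMKG alone at 5 mM (n = 4), each also given for 6 h, are used to say where the combination differed from its parts. Every library joined cells from 2 wells, the labels name no vehicle for the Control cells, and H460 is 1 line.

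The mitochondrial respiratory chain starts with complex I, which oxidizes NADH, and its inhibition slows both ATP production and the turnover of the TCA cycle. α-Ketoglutarate feeds that cycle and is also the co-substrate of a large family of dioxygenases, among them the prolyl hydroxylases that mark the hypoxia-inducible factors for destruction. Cells answer acute stress within hours through immediate early genes, which are transcribed without new protein synthesis, and through the integrated stress response, in which the transcription factor ATF4 induces genes of amino acid supply.

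The libraries held 45.9 M to 53.2 M recovered reads in Control and 43.6 M to 61.3 M in B87+DMKG. Keratin genes were high in all 8 libraries, with KRT8 at 65124 to 105326 normalized read counts, while the epithelial adhesion gene CDH1 was between 0 and 6.71. No lung epithelium marker of 8 in the table, 1 of 7 leukocyte markers (CD14) and 1 of 7 endothelial markers (KDR) reached the level needed for a test. More did so among neuroendocrine markers (4 of 6) and fibroblast markers (5 of 8). The neuroendocrine markers summed to 2064 to 2467 in Control and 1487 to 2072 in B87+DMKG, and the fibroblast markers to 1324 to 1456 and 1417 to 1595. The summed leukocyte markers were 203 to 250 in Control and 58.2 to 101 in B87+DMKG, and the summed endothelial markers 10.7 to 23.5 and 37.3 to 66.0, with PTPRC (0 to 6.71) and PECAM1 (0 to 1.01) at or near 0. The log2 values of B87+DMKG libraries varied more (median SD 0.249) than those of Control libraries (0.136). Mitochondrially encoded transcripts made up 5.39%, 7.51%, 4.21% and 2.24% of reads in B87+DMKG replicates 1 to 4 and 1.49% to 2.15% in Control, and the part of this share in the results was not tested. Control replicate 3 was the lowest Control library for many genes of the integrated stress response. DMKG replicates 3 and 4 lay apart from 1 and 2. Over all rows tested, log2 values correlated at 0.987 between DMKG replicates 1 and 2 and at 0.990 between 3 and 4. Across these pairs the correlations were 0.973 to 0.979, so a difference from DMKG averages over both pairs.

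Levels are read counts normalized by the authors, and they are listed by replicate 1 to 4. Identifiers are those of the table, and gene positions are on hg19, the build its header names. A change is a log2 fold change ± SE of the normalized value + 1, and it was called at an adjusted p (limma, Benjamini-Hochberg) below 0.05 among 16259 rows of the table that could be tested. Of these rows 9922 were called (61.0%), 4912 up (30.2%) and 5010 down (30.8%), and the median change of all rows was 0.0045. The 2 groups did not overlap in 8440 rows (51.9%), with B87+DMKG above in 25.8% and below in 26.1%. So many rows moved that a count over a gene list has to be read against these shares. The shares of all rows include rows with no gene symbol. Of the rows with 1 symbol 27.4% were called up and 34.2% down. All values are relative to the RNA sequenced, and fewer cells and less RNA per cell cannot be told apart. The labels do not say whether the replicates were separate cultures, so the p-values cover the spread of these samples, and that spread may be technical.

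**Figure D1:**
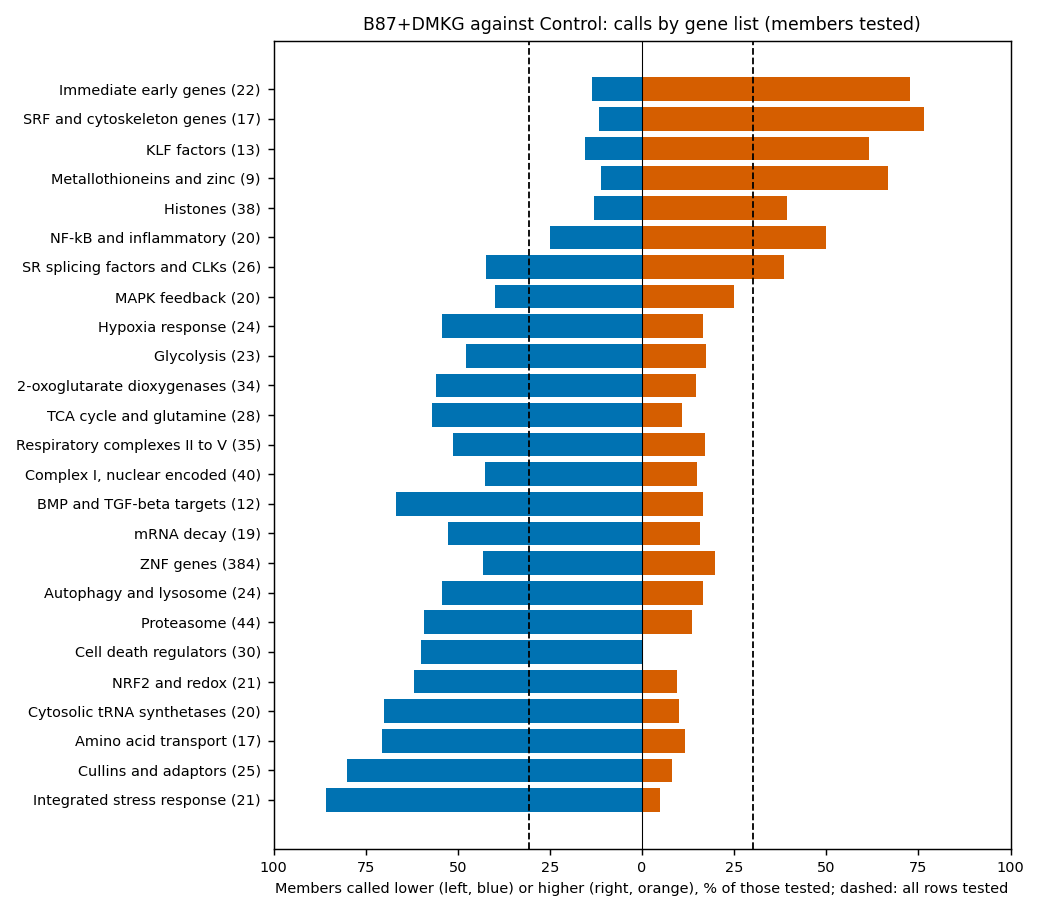
Share of the tested members of each gene list called lower (bars to the left, blue) or higher (bars to the right, orange) in B87+DMKG (n = 4) than in Control (n = 4), in % of the members tested, whose number is in parentheses. Dashed lines mark the shares over all rows tested (30.8% lower and 30.2% higher). Immediate early and cytoskeleton genes reach furthest to the right, and the integrated stress response and cullin lists furthest to the left.

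Genes of the immediate early response were among the largest rises. Of 22 members tested, 16 rose and 3 fell, with a median change of 1.58. DMKG alone also raised most of the class, with 17 of the 22 up and 1 down (median 1.23), against 19.6% and 21.8% of all rows. Tested directly, 10 were higher and 6 lower in the combination than with DMKG (median 0.40), against 30.8% and 29.3% of all rows. The transcription factor gene EGR1 (GSHG0024271, chromosome 5, 137801169 to 137805189) was at 441, 371, 214 and 470.3 in Control and at 35769, 37022, 29010.4 and 32179.8 in B87+DMKG. Every B87+DMKG library lay far above every Control library, a change of 6.54 ± 0.20 (limma adjusted p = 4.0e-21). It was at 1498, 1318, 1455 and 1665 with DMKG alone and at 437, 272, 202 and 211 with B87 alone, so the combination exceeded DMKG by 4.49 ± 0.20 and B87 by 6.96 ± 0.20. FOS, which encodes a subunit of the dimeric factor AP-1 (GSHG0008999, chromosome 14, 75745481 to 75748937), went from 300.1, 247, 222 and 238 to 3842, 3965, 4241 and 4429 (4.03 ± 0.20). The groups did not overlap, and FOS was also higher than with DMKG alone, where it was at 799, 752, 1841 and 1874 (1.78 ± 0.20 for the difference).

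The other members of the FOS, JUN and EGR families had the same direction except FOSL2, which was not called. FOSB, a second FOS family member, rose from 23.5, 14.9, 28.6 and 26.2 to 535, 548, 545 and 766 (4.64 ± 0.30), with replicate 4 the highest. JUN, the partner of FOS in AP-1, rose from 278, 353, 437 and 385 to 2551, 2239.9, 2648 and 2987 (2.85 ± 0.11). Control and B87+DMKG lay well apart for both genes, and JUN was also raised with DMKG alone (2.51 ± 0.11). EGR2, an EGR1 relative, was low in Control at 6.41, 14.9, 7.16 and 4.37 and stood at 44.7, 58.7, 60.6 and 82.8 in B87+DMKG (2.85 ± 0.37). It was not called in DMKG alone (-0.60 ± 0.37), and the combination was higher than DMKG by 3.45 ± 0.37. EGR3 (3.43 ± 0.81) rose from 0 to 4.37 in Control to 20.2 to 62.6 in B87+DMKG, close to the limit of what was tested. The orphan nuclear receptor genes NR4A1 (2.69 ± 0.22) and NR4A2 (2.75 ± 0.20) rose as well, NR4A2 from 931, 856, 847 and 868 to 5858, 6302, 5479 and 6027.

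Not every gene of the class rose. IER5, an immediate early gene that responds to heat and growth signals, fell from 2861, 2954, 3375 and 3081 to 1065, 763, 1164 and 1396 (-1.51 ± 0.13), with no overlap of the groups. IER3, which encodes a regulator of survival signalling, fell by less (-0.53 ± 0.13). MYC, the growth-promoting transcription factor, stood at 20690.2, 21672, 18558 and 20595 in Control and 18800.2, 18434, 21559 and 20711 in B87+DMKG and was not called (-0.04 ± 0.07, adjusted p = 0.66).

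The windows around the start sites of EGR1 and FOSB are shown because these members rose most within the class and RefSeq windows hold them. Windows, from RefSeq on GRCh38.p14, run from 250 bases before to 50 after the start, 5′ to 3′ on the gene's strand, and capitals mark matches on either strand to the CArG box (the motif bound by serum response factor, SRF), to TGACGT (the core of the cyclic AMP response element) and to TGANTCA (an AP-1 motif). No capitalised matches overlap in either window. Windows were found for 12 of the 16 members that rose.
EGR1, chr5:138465229-138465528: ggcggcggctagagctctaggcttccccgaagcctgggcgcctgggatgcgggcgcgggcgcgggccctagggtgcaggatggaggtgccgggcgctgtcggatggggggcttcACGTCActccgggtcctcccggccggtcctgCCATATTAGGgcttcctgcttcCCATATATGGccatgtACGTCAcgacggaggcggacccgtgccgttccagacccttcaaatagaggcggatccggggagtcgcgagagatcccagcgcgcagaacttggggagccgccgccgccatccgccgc
FOSB, chr19:45467746-45468045: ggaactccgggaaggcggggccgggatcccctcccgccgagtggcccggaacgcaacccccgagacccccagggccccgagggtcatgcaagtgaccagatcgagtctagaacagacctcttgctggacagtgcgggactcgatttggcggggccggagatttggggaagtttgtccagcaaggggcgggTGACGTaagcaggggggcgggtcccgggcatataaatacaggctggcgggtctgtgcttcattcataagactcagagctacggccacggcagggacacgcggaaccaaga
The EGR1 window holds 4 matches and the FOSB window 1. A CArG box is in 2 of the 12 windows (16.7%) against 1.29% of all 27305 windows, and TGACGT is in 6 of 12 (50%) against 8.32% of all. TGANTCA is in 0 of the 12 and in 7.76% of all windows, which says only that these letters are not there. Matches are a description of the sequence and show no binding.

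Genes known to be driven by SRF and actin showed a similar picture. Of 17 members tested 13 rose and 2 fell, with a median of 0.60, and without Control replicate 3 or B87+DMKG replicate 2 only 1 fell. With DMKG alone 14 of the 17 rose and 0 fell (median 0.45), against 19.6% and 21.8% of all rows. ZYX, which encodes the focal adhesion protein zyxin, rose from 11506, 12272, 11818 and 11730.2 to 22766, 25218, 25991 and 25845 (1.08 ± 0.11). MYL9, a myosin regulatory light chain gene, rose from 224, 273, 258 and 236 to 489, 579, 531 and 617 (1.16 ± 0.15), and TAGLN, which encodes the actin-binding protein transgelin, from 62, 86.3, 62.1 and 64.5 to 166, 103, 239.7 and 275 (1.41 ± 0.34). All 3 genes were higher in every B87+DMKG library than in any Control library. SRF itself rose by 0.54 ± 0.12, while FHL2, a LIM-domain cofactor gene, fell by 0.51 on the log2 scale. ACTB, which encodes β-actin, rose by 0.63 ± 0.10 in the fit used here but was not called after quantile normalization (0.15, adjusted p = 0.29). The genes of the secreted matrix proteins CYR61 (1.86 ± 0.11) and CTGF (1.57 ± 0.10) rose too, CYR61 from 5359.7, 5963, 5254 and 6133 to 19064, 18615, 21628 and 23063. CYR61 rose by a similar amount with DMKG alone (1.77 ± 0.11). CYR61 and CTGF are also targets of the coactivator YAP, and of 10 YAP targets tested 3 rose and 4 fell.

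Feedback regulators of mitogen-activated protein kinase (MAPK) signalling split, with 5 of 20 up and 8 down, against 30.2% and 30.8% of all rows. DUSP1, a phosphatase gene that acts on p38, JNK and ERK, rose from 10192, 10445, 8600.4 and 9929 to 26218, 26644, 30301 and 29828 (1.53 ± 0.12), and SPRED3, an inhibitor of RAS to ERK signalling, from 47, 51.1, 47.7 and 50.3 to 187, 252, 196 and 212 (2.08 ± 0.26). DUSP6, the cytoplasmic ERK phosphatase, went the other way, from 5062, 4913, 4452 and 5315 to 3379, 3325, 3306 and 2886 (-0.61 ± 0.07), although it had risen with DMKG alone (1.16 ± 0.07). ERRFI1, which encodes an inhibitor of the epidermal growth factor receptor, showed this reversal most: it was at 9446, 9956, 21510.2 and 22108 with DMKG alone and at 2948, 2801, 2511 and 2626 in the combination, against 4461, 4399, 2991 and 4775 in Control. It was lower in the combination than with DMKG (-2.42 ± 0.19) and lower than Control (-0.59 ± 0.19). SPRED1 also fell, from 827, 667, 733 and 830.1 to 175, 215, 206 and 182 (-1.97 ± 0.15). SPRY1, another inhibitor of receptor signalling, was called lower (-1.86 ± 0.55) but not in a fit of the 2 groups alone (adjusted p = 0.090).

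Krüppel-like factors, zinc finger transcription factors that often follow stress and shear signals, had 8 of 13 up and 2 down. Without Control replicate 3 or B87+DMKG replicate 2, 7 were up. With DMKG alone 9 of the 13 rose and 1 fell, against 19.6% and 21.8% of all rows. Tested directly, 2 were higher and 9 lower in the combination than with DMKG, against 30.8% and 29.3% of all rows. KLF6 rose from 961, 892, 838 and 916 to 4402, 4312, 3892 and 4379.6 (2.23 ± 0.12), KLF2 by 2.11 ± 0.29 and KLF4 by 1.23 ± 0.19. KLF9, a target of steroid hormone receptors, fell by 1.09 on the log2 scale. Among receptors and ligands of the epidermal growth factor family, ERBB3 rose (1.55 ± 0.22) and the ligand gene EPGN fell from 10538, 10582, 11572 and 12099 to 5390.0, 5728, 5123 and 4697 (-1.10 ± 0.10). EPGN had risen with B87 alone, as 1 of the 7 rows called there (0.0431%, with 0.0308% up and 0.0123% down).

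Genes of the integrated stress response had the opposite course. Of 21 members tested 18 fell and 1 rose, with a median of -1.29. The sharpest fall was in CHAC1, which encodes a glutathione-degrading enzyme (GSHG0009793, chromosome 15, 41245636 to 41248717), which was at 3164, 3369, 710.1 and 3114 in Control and at 36.9, 69.3, 12.5 and 36.3 in B87+DMKG (-6.02 ± 0.36, limma adjusted p = 1.1e-14). Control replicate 3 was the low one, yet all B87+DMKG libraries lay below it. DMKG alone had CHAC1 at 715, 741, 603 and 554, and the combination was lower still (-4.25 ± 0.36). ADM2, which encodes the peptide intermedin, went from 845, 965, 249 and 909 to 47, 90.7, 79.3 and 69.7 (-3.22 ± 0.26), again with Control replicate 3 low and no overlap.

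ATF4 itself was at 51776, 56854, 40947 and 50284 in Control and 28312, 29136, 30640.0 and 31477 in B87+DMKG, a smaller fall (-0.73 ± 0.07) than that of most of its targets. ASNS, asparagine synthetase, fell from 7119, 7653, 4558 and 7277 to 2522, 1835, 2464 and 2187 (-1.54 ± 0.12), and TRIB3, a pseudokinase that dampens the response, from 4050.2, 4381, 2453 and 4133 to 729, 560.0, 909.7 and 963 (-2.24 ± 0.17). PPP1R15A (GADD34), which recruits the phosphatase that ends the response, was the exception: it rose from 1598, 1729, 954 and 1483 to 8215, 9222, 8506 and 9016 (2.63 ± 0.16). The groups did not overlap for any of these 4 genes. Without Control replicate 3 the list had 18 members down and 1 up and a median of -1.39, and without B87+DMKG replicate 2 it had 19 down and 1 up.

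CHAC1 and ADM2 had the largest falls of the class, and their windows are shown for this reason, with capitals marking matches on either strand to TGATGNAA, the composite element of C/EBP and ATF factors.
CHAC1, chr15:40953221-40953520: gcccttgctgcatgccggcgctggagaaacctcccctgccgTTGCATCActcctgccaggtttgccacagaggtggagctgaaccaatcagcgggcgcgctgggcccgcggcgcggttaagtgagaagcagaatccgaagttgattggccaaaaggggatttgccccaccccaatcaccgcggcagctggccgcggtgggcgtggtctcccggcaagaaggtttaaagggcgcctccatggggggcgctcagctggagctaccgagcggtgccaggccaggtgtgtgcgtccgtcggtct
ADM2, chr22:50481293-50481592: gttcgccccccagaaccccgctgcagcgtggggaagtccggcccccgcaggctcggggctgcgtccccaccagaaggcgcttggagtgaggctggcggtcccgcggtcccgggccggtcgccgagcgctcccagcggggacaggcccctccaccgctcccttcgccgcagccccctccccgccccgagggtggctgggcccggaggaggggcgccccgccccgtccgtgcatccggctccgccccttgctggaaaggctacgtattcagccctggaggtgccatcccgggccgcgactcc
The CHAC1 window holds 1 match and the ADM2 window 0. Windows were found for 15 of the 18 members that fell, and 2 of these hold the motif (13.3%), against 3.67% of all windows.

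Of 17 amino acid transporters 12 fell and 2 rose, median -0.44, and without Control replicate 3 the numbers were 11 and 1. SLC38A2, the SNAT2 carrier of small neutral amino acids (GSHG0007400, chromosome 12, 46751971 to 46766645), had the largest change. It was at 9095, 7438, 6839 and 10049 in Control, 10225, 8542, 7337 and 8536 with B87 alone and 7472, 8119, 8512 and 10312 with DMKG alone, and at 945, 743, 1116 and 1184 in the combination. Neither compound alone was called, and DMKG alone stood at 0.05 ± 0.20. The combination was lower than Control (-3.07 ± 0.20) and lower than DMKG (-3.12 ± 0.20) (limma adjusted p = 9.4e-14 and 6.9e-14). SLC7A5, the large neutral amino acid transporter LAT1, fell from 19366, 17615, 14661 and 18457 to 8650.0, 9103, 9089 and 8784 (-0.97 ± 0.08), and SLC7A11, the cystine carrier of the xc- system, from 7431, 5288, 5732 and 7191 to 2779, 2237, 2262 and 2803 (-1.34 ± 0.19).

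In serine synthesis and one-carbon metabolism 8 of 17 genes fell and 1 rose. PSAT1, phosphoserine aminotransferase, fell from 12509.6, 12780.4, 8680.3 and 12922 to 3320.4, 3106, 3192 and 2806 (-1.90 ± 0.10). PSPH, the phosphatase of the last step of serine synthesis, fell from 741, 712, 414 and 750.2 to 196, 251, 234 and 249 (-1.46 ± 0.15), and MTHFD2, a mitochondrial folate enzyme, by 1.27 on the log2 scale. Control replicate 3 was the lowest Control library for all 3, and the B87+DMKG libraries were below it in each case. Of 20 cytosolic aminoacyl-tRNA synthetase genes 14 fell and 2 rose, with a median of -0.33. FARSB fell (-0.79 ± 0.09) while FARSA, which encodes the other subunit of the same enzyme, rose (0.52 ± 0.08).

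Metallothioneins are small cysteine-rich proteins that bind zinc and copper. Of the 9 genes of metallothioneins and zinc handling tested, 6 rose and 1 fell, with a median of 1.30. MT2A (GSHG0011212, chromosome 16, 56642478 to 56643408) was the member with the highest count, at 3520.5, 4346, 3387 and 3334 in Control and 14625, 14006, 16958 and 14737 in B87+DMKG, with no overlap (2.05 ± 0.23). MT1G was nearly silent in Control at 6.41, 8.53, 4.77 and 4.37 and stood at 615, 827, 735 and 571 in B87+DMKG (6.64 ± 0.77). MT1X rose from 495, 540.2, 479.8 and 479 to 1238, 1327, 1402 and 971 (1.30 ± 0.13) and MT1F by 4.33 ± 0.55. MT1E rose by 1.77 ± 0.60, a call that was lost without Control replicate 3 (1.34, adjusted p = 0.065) and after quantile normalization (1.24, adjusted p = 0.065). Near-identical copies of this family can share reads, so the split between members is uncertain.

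The member of the set that fell was SLC30A1, the zinc exporter ZnT1, from 2311, 2307, 2646 and 2687 to 1047, 937, 1010.4 and 1225 (-1.24 ± 0.14). DMKG alone was uneven: MT2A was at 4073, 3722, 11889 and 10418 and MT1G at 11.1, 10.4, 499 and 413, so replicates 3 and 4 were close to the combination and replicates 1 and 2 to Control. MT1G was higher in the combination than with DMKG by 3.22 ± 0.77, but without DMKG replicates 1 and 2 the difference was 0.58 and not called (adjusted p = 0.30).

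The MT2A window is shown because its gene had the largest rise among metallothioneins with a RefSeq window. Capitals mark TGCACNC or TGCGCNC on either strand, the core of the metal response element.
MT2A, chr16:56608334-56608633: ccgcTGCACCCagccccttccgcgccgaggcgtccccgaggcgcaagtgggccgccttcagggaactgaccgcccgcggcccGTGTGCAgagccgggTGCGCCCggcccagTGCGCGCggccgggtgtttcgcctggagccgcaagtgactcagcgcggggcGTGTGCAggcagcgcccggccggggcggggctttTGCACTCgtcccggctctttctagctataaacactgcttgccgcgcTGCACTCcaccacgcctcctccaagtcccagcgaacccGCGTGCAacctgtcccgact
The window holds 8 matches. Both of the 2 windows found for the 6 members that rose hold the motif, as do 29.3% of all windows.

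**Figure D2:**
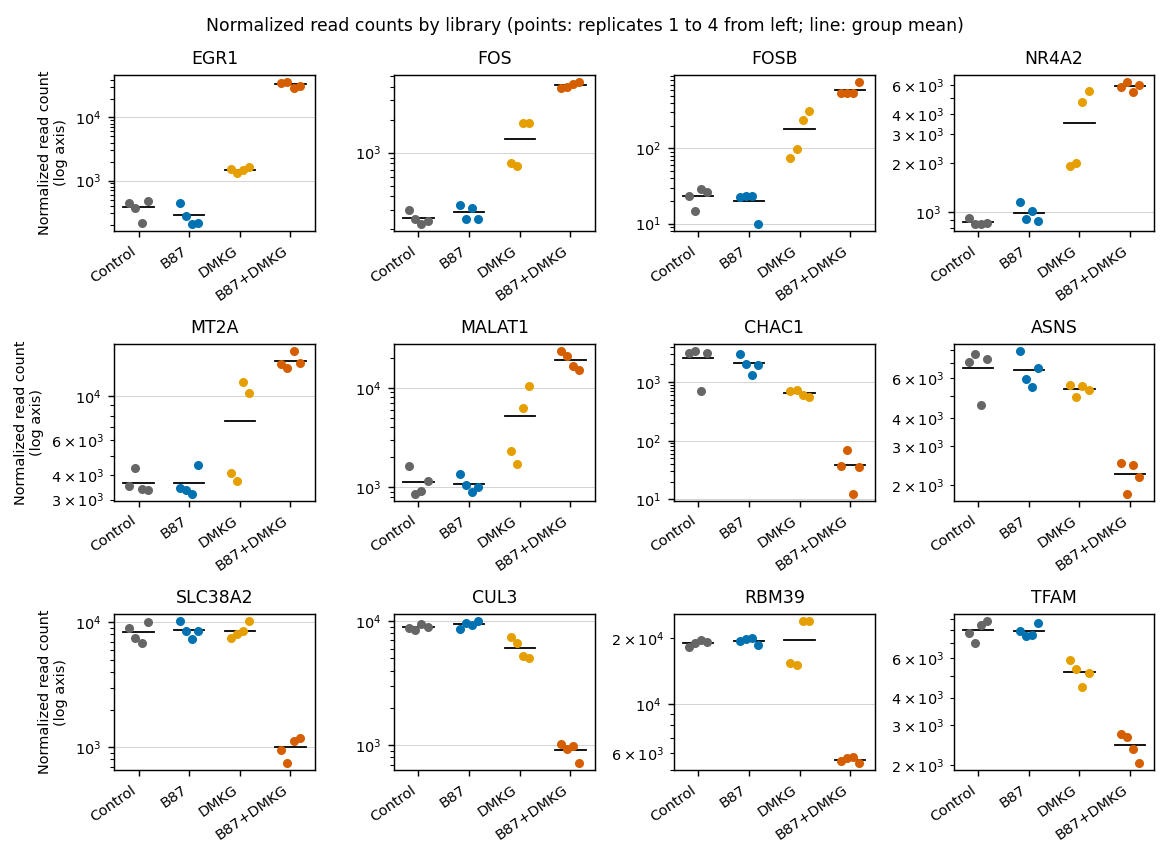
Normalized read counts (log axis, scaled separately per panel) of 12 genes in Control, B87, DMKG and B87+DMKG, with 1 point per library, replicates 1 to 4 from left to right, and a line at the group mean (n = 4 each). EGR1 with DMKG alone lies between Control and the combination, while SLC38A2 and CUL3 are lowest in the combination, in each of its 4 libraries.

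Cullins, the scaffolds of the largest family of ubiquitin ligases, and their adaptors mostly fell. Of 25 genes tested 20 fell and 2 rose, with a median of -0.66. CUL3 (GSHG0018382, chromosome 2, 225334867 to 225450114), the scaffold that binds BTB-domain adaptors such as KEAP1, was at 8726, 8397, 9439 and 9000.5 in Control and 1033, 943, 979 and 717 in B87+DMKG (-3.29 ± 0.10, limma adjusted p = 1.1e-20). It was at 8642, 9586, 9371 and 10056 with B87 alone and at 7430.1, 6700.0, 5264 and 5016 with DMKG alone, and lower in the combination than with either (-3.37 ± 0.10 and -2.73 ± 0.10). CUL5, the scaffold used by SOCS-box adaptors, fell from 1531, 1115, 1632 and 1605 to 271, 185, 165 and 173 (-2.90 ± 0.19). CUL1, the scaffold of the F-box ligases, fell from 7925, 7455, 8450.0 and 8103 to 2201, 2155, 2209.7 and 1989.9 (-1.90 ± 0.07). CUL2, which carries the von Hippel-Lindau protein, fell (-1.26 ± 0.10). None of these 4 genes had overlapping groups.

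The atypical, large cullins behaved differently. CUL9 rose from 521, 479.5, 474 and 529 to 1091, 1155, 1362 and 1549 (1.35 ± 0.13) and CUL7 from 591, 571, 668 and 598 to 915, 832, 1269.7 and 1215 (0.78 ± 0.11). CUL4B, whose ligases use the adaptor DDB1, fell (-0.47 ± 0.11). The BTB adaptors KBTBD8 (-3.45 ± 0.69), KBTBD7 (-1.86 ± 0.14) and KBTBD2 (-1.80 ± 0.07) fell, and so did KEAP1, the adaptor that holds NRF2 low (-0.71 ± 0.14).

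**Figure D3:**
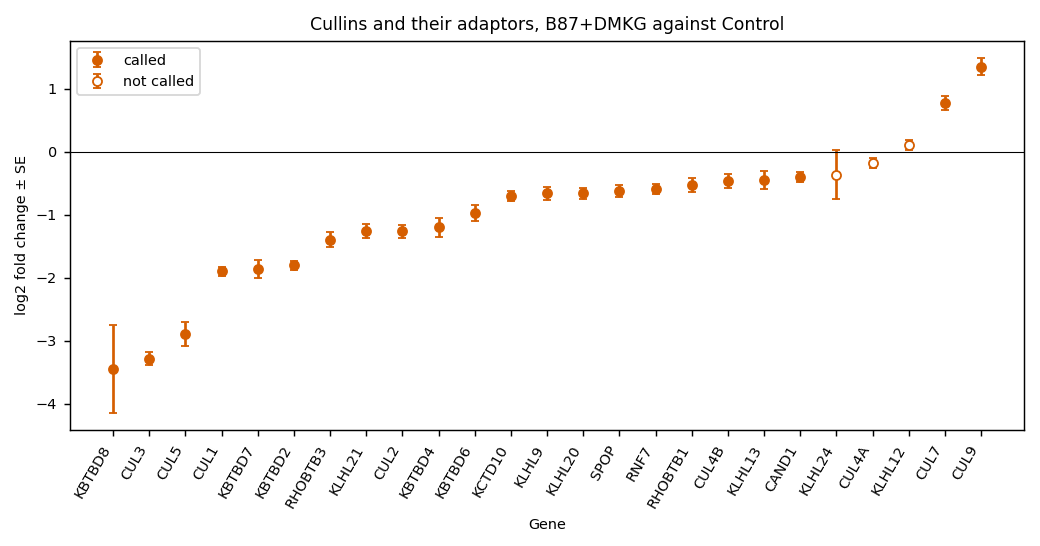
Log2 fold change ± SE in B87+DMKG (n = 4) against Control (n = 4) of 25 cullins and cullin adaptors, in order of change, with filled points where the gene was called. KBTBD8 (-3.45), CUL3 (-3.29) and CUL5 (-2.90) lie lowest, and CUL7 (0.78) and CUL9 (1.35) are the called genes above 0.

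Proteasome genes moved the same way with smaller steps, 26 of 44 down and 6 up (median -0.24), or 25 down and 3 up without Control replicate 3 or without B87+DMKG replicate 2. PSMD12, a lid subunit, fell from 9361, 8617, 9939 and 9225 to 4176, 3686, 3879 and 3402 (-1.30 ± 0.08), and PSMA3, a subunit of the core ring, from 11330.4, 12682, 13119 and 12219 to 6507, 5868, 6374 and 5506 (-1.03 ± 0.08). UBL3, a ubiquitin-like protein tethered to membranes, fell from 1399, 1201, 1432 and 1394 to 107, 133, 101 and 108 (-3.59 ± 0.14).

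Targets of NRF2, the transcription factor of the oxidative stress response, were lower rather than higher: 13 of 21 fell and 2 rose, median -0.60. GCLM, the modifier subunit of glutamate-cysteine ligase, fell from 6123, 6292, 6835 and 6759.7 to 2820.3, 2141, 2791 and 2571 (-1.34 ± 0.09). TXNRD1, thioredoxin reductase, fell from 134137, 122373, 124455 and 129511 to 72770.0, 71962, 54691 and 54233 (-1.02 ± 0.10), and NFE2L2, which encodes NRF2, fell by 0.79 on the log2 scale. The groups did not overlap for these 3 genes.

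All 3 sestrins, stress-induced inhibitors of the growth kinase mTORC1, fell without overlap. SESN1 went from 308, 293, 358 and 296 to 153, 70.7, 109.6 and 113 (-1.53 ± 0.16), SESN2 from 1245, 1261, 528 and 1429 to 170.0, 271, 234 and 259 (-2.18 ± 0.20) and SESN3 from 716, 474, 613 and 689 to 293, 140.0, 215 and 216 (-1.55 ± 0.17). They stood within a list of 14 brakes on mTORC1 of which 7 fell and 2 rose (median -0.34), with 1 up without Control replicate 3. IRS2, an adaptor of the insulin receptor, fell from 8369.7, 8528, 8816 and 10322 to 2626, 2247, 2601 and 3225 (-1.76 ± 0.12).

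The cell death list had 18 of 30 members down and 0 up by limma (1 up at an unadjusted p under 0.05, 0 up by edgeR and 1 by DESeq2), with a median of -0.40. The members that fell include genes that restrain death, such as BCL2 (-0.82 ± 0.18) and BIRC2 (-1.29 ± 0.16), and genes that promote it. PMAIP1 (NOXA), a death-promoting relative of BCL2, fell from 1987, 1924, 1315 and 2290.0 to 867, 691, 530.1 and 453 (-1.58 ± 0.15). APAF1, the scaffold that activates caspase-9, fell from 1013, 737, 959.6 and 988 to 386, 421, 334 and 415 (-1.24 ± 0.14). After quantile normalization the list had 16 down and 4 up, and without B87+DMKG replicate 2 it had 18 down and 1 up. Genes of parthanatos, a death pathway that runs through the poly(ADP-ribose) polymerase PARP1, were split into 5 up and 7 down of 16. Of all rows 30.2% were up and 30.8% down. NMNAT1, the nuclear enzyme of NAD synthesis, rose from 132, 151, 155 and 148 to 299.8, 327, 304 and 289.8 (1.05 ± 0.12), and PARP1 fell from 19227, 19213, 19690.4 and 20249.5 to 16205, 15754, 16645 and 16020.3 (-0.28 ± 0.06). Of 24 autophagy and lysosome genes 13 fell and 4 rose, with ATG5, which is needed to form the autophagosome, at -1.10 ± 0.11.

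Hypoxia genes differed between the combination and DMKG alone. Of 24 tested, 22 rose with DMKG alone, where 41.4% of all rows were called (19.6% up and 21.8% down), and their median was 1.37. In the combination 4 rose and 13 fell against Control, with a median of -0.31, and with B87 alone the median was 0.05. Tested directly, 23 of the 24 were lower in the combination than with DMKG, and 1 was higher, with a median of -2.28. In that test 60.1% of all rows were called, 30.8% higher and 29.3% lower. Against B87 alone, where 62.6% of rows were called (31.1% higher and 31.5% lower), 14 of the 24 were lower and 4 higher. The comparisons with Control share the Control libraries, so their values are set side by side.

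HK2, which encodes a hexokinase (GSHG0016590, chromosome 2, 75059782 to 75120479), was at 4151, 3489, 3831 and 3971 in Control, 4797, 4695, 4855 and 3665 with B87, 17002, 18539, 19476 and 20796 with DMKG and 3411, 3094, 3149.7 and 3779.9 in the combination. The combination lay within or just under the Control range (-0.20 ± 0.09, limma adjusted p = 0.054) and far below DMKG (-2.50 ± 0.09). HK2 was called lower than Control when Control replicate 2 (-0.25, adjusted p = 0.028) or B87+DMKG replicate 4 (-0.26, adjusted p = 0.019) was left out, and by edgeR (-0.24, adjusted p = 0.028). ANGPTL4, a secreted inhibitor of lipoprotein lipase, was at 769, 830.1, 758 and 801 in Control, 11258, 10536, 12708 and 11942 with DMKG and 792, 795, 985 and 1098 in the combination. It was not called against Control (0.20 ± 0.13) and was lower than with DMKG (-3.67 ± 0.13).

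SLC2A3, the glucose transporter GLUT3, followed the same course, from 13339, 13339, 17598 and 18042 with DMKG to 2472, 2111, 2135 and 2493 in the combination (-2.75 ± 0.10), against 1982, 1968, 1933 and 2194 in Control. EGLN1, the oxygen-sensing prolyl hydroxylase that uses α-ketoglutarate, went past the Control level: it was at 1319, 1154, 1256 and 1390.0 in Control, 3573, 3255, 3157 and 3429.9 with DMKG and 629, 424, 488 and 440.2 in the combination (-1.38 ± 0.12 against Control). VEGFA, the vascular growth factor, also ended below Control, at 2722, 2933, 2334 and 2111 against 5092, 5228, 3300.0 and 4617 (-0.84 ± 0.11). Other genes stayed partly raised. PFKFB4, which encodes a regulator of phosphofructokinase, was at 84.4, 81, 84.7 and 67.8 in Control and 114, 192, 186 and 137 in the combination (0.95 ± 0.17), STC1, a calcium-regulating hormone gene, rose by 1.28 ± 0.14, and ENO2, an enolase, by 1.24 ± 0.21. Each of these 3 was still lower than with DMKG (-3.74 ± 0.17, -2.66 ± 0.14 and -1.75 ± 0.21).

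**Figure D4:**
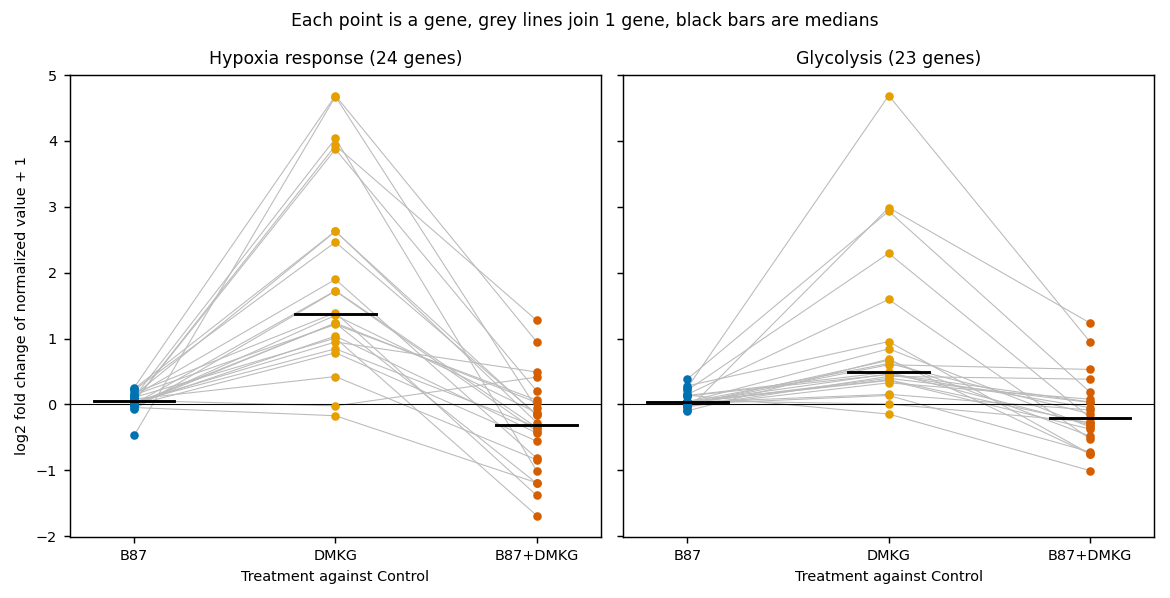
Log2 fold changes against Control of 24 hypoxia genes (left) and 23 glycolysis genes (right) with B87, DMKG and B87+DMKG, with 1 point per gene, grey lines joining a gene and black bars at the medians. The hypoxia medians are 0.05, 1.37 and -0.31, and the 3 treatments share the same Control libraries.

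Glycolysis genes had 19 of 23 up with DMKG alone, against 19.6% of all rows. In the combination 4 were up and 11 down (median -0.20), against 30.2% and 30.8% of all rows. In the direct test against DMKG 21 of the 23 were lower and 0 higher, against 29.3% and 30.8% of all rows. SLC16A1, the lactate transporter MCT1, fell from 3407, 3253, 3638 and 3555 to 1708, 1845, 1674 and 1672 (-1.01 ± 0.09). KDM3A, a histone demethylase of the α-ketoglutarate-dependent family, was at 8825, 8841, 11671 and 12281 with DMKG and 1509, 1668, 1149 and 1224 in the combination, against 1627, 1622, 1689 and 1705 in Control. It was called lower than Control (-0.28 ± 0.11), but this was lost when Control replicate 3 or 4 was left out (adjusted p = 0.055 and 0.059), when B87+DMKG replicate 3 or 4 was (0.14 and 0.097), and in 3 other settings. Of 34 dioxygenases of this family 19 fell and 5 rose (median -0.29).

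Genes of mitochondrial metabolism were called lower more often than higher. Of 28 genes of the TCA cycle and glutamine use 16 fell and 3 rose (median -0.24). SUCLA2, a succinyl-CoA synthetase subunit, fell from 2939, 2744, 3181 and 2931 to 1839, 1523, 1462 and 1576 (-0.89 ± 0.08). OGDH, the subunit of α-ketoglutarate dehydrogenase that binds the substrate, rose from 9615, 8907, 9907 and 9177 to 13816, 14254, 14753 and 15842 (0.64 ± 0.05). TFAM, which packages and transcribes mitochondrial DNA, fell from 7780.1, 7040.2, 8488 and 8834 to 2739.8, 2671, 2358 and 2030.3 (-1.72 ± 0.09), with no overlap. The share of mitochondrial reads was higher in the same libraries, and replicate 4 had the lowest TFAM value and the lowest share of the B87+DMKG libraries.

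Of 35 genes of complexes II to V 18 fell and 6 rose, and complex I had 17 of 40 nuclear genes down and 6 up (medians -0.24 and -0.12). COX5A, a subunit of cytochrome c oxidase, fell from 8314, 10139, 10188 and 9907 to 5644, 5397, 6664 and 5963 (-0.70 ± 0.09), and NDUFA2, a complex I subunit, (-0.93 ± 0.12). NDUFAF2, an assembly factor of complex I, rose from 4781, 4912, 4460.1 and 4282 to 11310.3, 13335, 8173 and 7035 (1.07 ± 0.17) and ATP5J, an ATP synthase subunit, from 11206, 11577, 11086 and 10062 to 23113, 24816, 17322 and 13658 (0.81 ± 0.17). In both rising genes replicates 1 and 2 were higher than 3 and 4.

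Of 9 genes of glucose sensing 4 rose and 2 fell. MLXIPL, which encodes the glucose-responsive transcription factor ChREBP, rose from 40.6, 32, 56.1 and 55.8 to 541, 832, 683 and 645 (3.86 ± 0.22), and was at 104, 151, 168 and 244 with DMKG alone. ARRDC4, an arrestin gene induced by glucose, fell from 123, 113, 100.3 and 132 to 6.71, 29.3, 37.4 and 25.2 (-2.41 ± 0.32). TXNIP, its relative that restrains glucose uptake, was at 1109.8, 972, 562 and 959 in Control, 383, 367, 316 and 532 with B87 and 625, 951, 702 and 587 in the combination. It was not called against Control (-0.31 ± 0.16), but was when Control replicate 3 (-0.52, adjusted p = 0.0028) or B87+DMKG replicate 2 (-0.46, adjusted p = 0.017) was left out, and by edgeR (-0.37, adjusted p = 0.044). It was higher in the combination than with B87 alone (0.84 ± 0.16), where it was below Control (-1.15 ± 0.16), a call that was lost in a fit of the 2 groups alone (adjusted p = 0.079).

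PPP1R10, which encodes a nuclear subunit of protein phosphatase 1, gave the widest gap between DMKG and the combination among the 27 genes set against DMKG here. It was at 3992, 3554, 4334 and 3699.7 in Control, 3236, 3731, 3689.8 and 3474 with B87, 217, 264, 153 and 183 with DMKG and 6679.9, 8146, 6282 and 5757 in the combination. The combination was higher than Control (0.78 ± 0.13), than B87 (0.92 ± 0.13) and than DMKG (5.05 ± 0.13, limma adjusted p = 2.2e-23).

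Nuclear RNA and splicing genes changed in both directions. MALAT1, a long noncoding RNA retained in nuclear speckles, rose from 1628, 857, 907 and 1161 to 23333, 20771, 16396 and 15214 (4.08 ± 0.34). With DMKG alone it was at 2330.1, 1699.7, 6272 and 10531, and the combination was higher than DMKG by 2.21 ± 0.34. Of 17 noncoding nuclear RNAs and host transcripts 6 rose and 5 fell, near the shares of all rows (30.2% and 30.8%). Among them NEAT1, the RNA of paraspeckles, was up by 0.36 ± 0.06 and the long noncoding RNA DANCR at -1.66 ± 0.09. Of 26 SR splicing factors and their kinases 10 rose and 11 fell, against the same shares of all rows. SRSF5 rose from 3589.9, 3998, 3265 and 3818 to 13570.2, 14458, 10648 and 10351 (1.73 ± 0.12) and CLK2, a kinase of SR proteins, from 1778, 1730.5, 1472 and 1796 to 4259, 4893, 4522 and 4356 (1.41 ± 0.13). TRA2B, a splicing activator, fell from 13342, 14299, 13247 and 12920.0 to 3833, 3639.8, 3419 and 2918 (-1.97 ± 0.07).

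RBM39, a splicing factor that binds U2AF, was at 18169.5, 19013, 19565 and 19109.9 in Control, 15340.4, 15080.1, 23867 and 23884 with DMKG and 5509.7, 5717, 5768 and 5382 in the combination. It fell by 1.76 on the log2 scale against Control and was lower than with DMKG (-1.77 ± 0.10). In transcription elongation 9 of 22 genes rose and 6 fell. The 2 cyclins of the elongation kinases moved apart: CCNK, partner of CDK12, rose from 2164, 2130.1, 2048 and 2235 to 5844, 7701, 4885 and 4166 (1.36 ± 0.17), and CCNT1, partner of CDK9, fell from 668, 454, 602 and 629 to 258, 249, 210.3 and 237 (-1.29 ± 0.19). Of 19 genes of messenger RNA decay 10 fell and 3 rose. CNOT6, a deadenylase of the CCR4-NOT complex, fell from 2206, 1784, 2221 and 2065 to 850.2, 799, 827 and 829 (-1.32 ± 0.11), while ZFP36 (tristetraprolin), which brings that complex to AU-rich transcripts, rose from 1397, 1768, 1905 and 1667 to 7661, 8799, 7507 and 7192 (2.21 ± 0.15).

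Developmental and clock genes gave smaller sets. Of 12 targets of BMP and TGF-β signalling 8 fell and 2 rose. The ligand gene BMP2 fell from 90.8, 147, 119 and 133 to 34.7, 10.7, 34.7 and 33.3 (-2.19 ± 0.25), with replicate 2 the lowest. Of the ID genes, which encode inhibitors of differentiation, ID4 (-1.68 ± 0.37) and ID1 (-0.79 ± 0.13) fell and ID3 rose from 14601, 17348, 15029 and 15589.6 to 24507, 27884, 32026 and 31054 (0.88 ± 0.09). In the Notch pathway 7 of 16 fell and 2 rose, with 1 up when Control replicate 3 or B87+DMKG replicate 2 was left out. The Notch targets NRARP (from 596, 627, 697 and 713 to 136, 163, 146 and 139, -2.16 ± 0.14) and HES1 (from 630.2, 671, 462 and 699.9 to 1703, 2023, 1564 and 1783, 1.53 ± 0.11) went in opposite directions. So did the clock genes PER2 (-1.31 ± 0.17) and PER1 (1.00 ± 0.15), with the clock repressor gene NR1D2 at -1.21 ± 0.17. Of 7 targets of the aryl hydrocarbon receptor tested 3 fell and 1 rose (median -0.04), against 30.8% and 30.2% of all rows. CYP1A1 (-2.82 ± 0.34) and CYP1B1 (-1.46 ± 0.15) were among those that fell, CYP1B1 from 7083, 7328, 6431 and 8863 to 2438, 2159, 2639 and 3678.

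Inflammatory genes of the NF-κB list had 10 of 20 up and 5 down. The interleukin genes IL1A, at 537, 553, 334 and 535 in Control and 66, 119, 76.6 and 66.6 in B87+DMKG (-2.58 ± 0.25), and IL1B (-2.35 ± 0.39) fell, whereas the chemokine gene CCL20 rose from 627, 599, 524 and 606 to 2527, 2697, 1219.8 and 887 (1.49 ± 0.26), with replicates 1 and 2 above 3 and 4. UBD, which encodes the ubiquitin-like modifier FAT10, rose from 141, 115, 115 and 155 to 1377, 1663, 1564 and 1692 (3.58 ± 0.31).

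HOX genes, which set position along the body axis, had 9 of 22 up and 9 down, and their median changed sign with quantile normalization (0.18 and -0.20). HOXB3 rose from 29.9, 38.4, 39.4 and 37.2 to 429.6, 435, 445 and 379.6 (3.51 ± 0.22), and HOXA6 fell from 107, 89.5, 104 and 86.4 to 19, 30.7, 7.13 and 24.2 (-2.36 ± 0.38). Histone genes had 15 of 38 up and 5 down with a median of 0.53, which was -0.04 after quantile normalization, with 11 up and 7 down. HIST1H2BF rose from 12.8, 6.39, 7.16 and 12 to 105, 72, 116 and 76.7 (3.17 ± 0.43). Of 384 zinc finger genes with a ZNF symbol 166 fell and 76 rose (median -0.26). ZNF669 fell from 726, 714, 796 and 715 to 131, 56, 177 and 131 (-2.68 ± 0.20). ZNF331 was at 0 in 3 of 4 Control libraries and at 35.8, 24, 31.2 and 56.5 in B87+DMKG. With DMKG alone 193 of the 384 ZNF genes fell and 45 rose (median -0.43), and 14 of the 22 HOX genes fell and 4 rose. Of all rows 21.8% fell and 19.6% rose. Tested directly, 159 ZNF genes were higher and 91 lower in the combination than with DMKG. For HOX genes these numbers were 16 and 1. Of all rows 30.8% were higher and 29.3% lower in that test.

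Genes with large changes outside these lists are named here too. SH2D2A, a T-cell adaptor gene, rose from 4926, 5478, 4681 and 4923 to 15341, 17914, 16428 and 16912 (1.73 ± 0.11). NCKAP1, a subunit of the WAVE complex that drives actin branching, fell from 17553, 15934, 18482 and 18200.0 to 5605, 4814, 5129 and 4126 (-1.84 ± 0.11), and DESI2, a deubiquitinase gene, from 7066, 6285, 7835 and 7535 to 1877, 1459.9, 1845 and 1511 (-2.10 ± 0.08). KIF5B, the heavy chain of kinesin-1, fell from 2961, 2301, 2979 and 2855 to 425, 521, 265 and 239 (-2.999 ± 0.23). FASTKD1, a mitochondrial RNA-binding protein gene, fell from 2207, 1992, 2665 and 2379.7 to 321, 237, 339 and 265 (-2.99 ± 0.10) and CDC42SE2, an effector of CDC42, (-3.01 ± 0.15). GAPDH, often used as a reference gene, was at 578859, 638135, 579614 and 561063 in Control and 511288, 526971, 626844 and 621512 in B87+DMKG and was not called (-0.05 ± 0.07).

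The shares called higher and lower differed by kind of row. Of 2416 tested rows with no gene symbol 44.3% were called higher and 12.4% lower, with a median of 0.57, against 27.4% and 34.2% of the 13020 rows with 1 symbol (median -0.05). With DMKG alone the median of the rows with no symbol was -0.01. A low row can pass the minimum mean of 10 over all 31 libraries through the group where it is high. Of all calls 49.5% were up, against 44.7% at a mean of at least 50 and 55.7% with no filter. The part of the filter in these shares was not tested. Nuclear rows with no symbol summed to 0.84% to 0.86% of the counts in Control and 1.06% to 1.09% in B87+DMKG. Symbols that end in AS and a number, which name antisense transcripts, had 34.8% of 353 higher and 12.2% lower, and LINC symbols 33.3% and 15.7% of 153. Among rows with 1 gene, those with a span under 10 kb had 31.7% higher and 27.3% lower, and those of 50 to 250 kb 23.9% and 37.7%. Above 250 kb the shares were 28.8% and 26.4%, so they did not follow span in 1 direction. Whether the counting used the strand is not given in the sources used here, so reads of antisense and sense genes may not be separated.

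**Figure D5:**
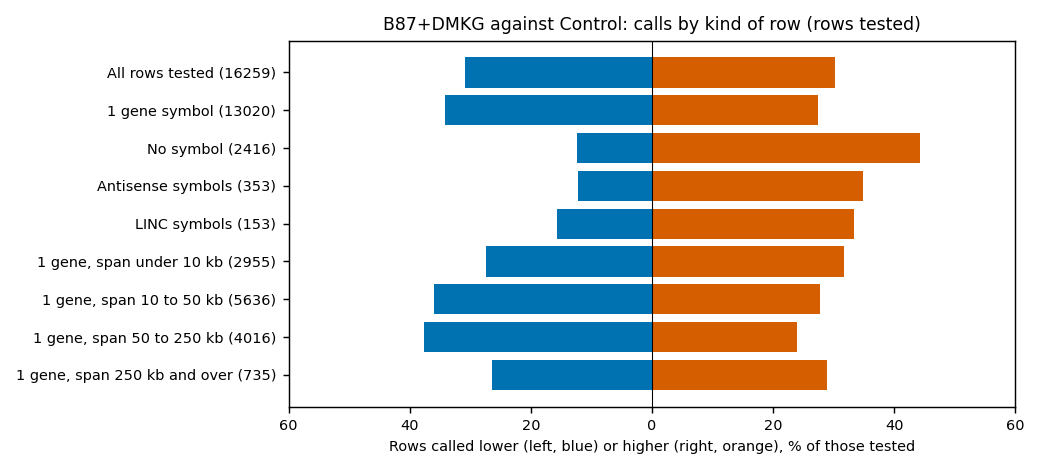
Share of rows called lower (left, blue) or higher (right, orange) in B87+DMKG (n = 4) than in Control (n = 4), in % of the rows tested (number in parentheses), by kind of row and by the distance between start and end of rows with 1 gene. Rows with no symbol and antisense and LINC symbols have more rows higher than lower, and genes of 50 to 250 kb the most lower.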

How the data were processed

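Poly(A) RNA of H460 cells was made into libraries with the TruSeq stranded mRNA kit after Qiagen RNeasy Plus Micro extraction, per the labels' protocols. The deposited table holds 1 signal column for each of 31 samples, read counts per gene divided by a size factor by the authors. FastQC, Picard, SAMtools, STAR 2.4.0 and DESeq2 are named in the submitters' processing notes, with no order. The file header names hg19 and the notes mm10, and positions of genes are given on hg19. In every column the deposited values were whole multiples of the value of 1 read (100% of values above 0, within 0.1 of a step), and these recovered counts give a depth of 43.6 M to 61.3 M reads in the 8 libraries compared. Of low recovered counts 57.2% were even, so read mates may have been counted separately.

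Values were tested as log2(value + 1) with limma 3.58.1 in R 4.3.3, in 1 model of all 31 samples with a mean-variance trend, over the 16259 of 74834 rows with a mean of at least 10. The residual degrees of freedom were 23. Calls need a two-sided p under 0.05 after Benjamini-Hochberg adjustment, and a fold change on this scale understates the change of low genes. The combination was tested against Control, DMKG and B87, and DMKG and B87 against Control are given beside them. Other settings were pseudocounts of 0.5 and 5, no filter, a mean of at least 50, quantile normalization, equal totals, a fit of the 2 groups alone, array weights, a replicate block, leaving out each library, and edgeR 4.0.16 and DESeq2 1.42.0 on the recovered counts. Chosen after the data were seen were the fits of rows with 1 gene, those without DMKG replicates 1 and 2 or 3 and 4, and the list counts without Control replicate 3 or B87+DMKG replicate 2. The limma step was tested on simulated data.

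The members and gene lists were chosen with earlier results of these data known. Some genes, such as SESN2 and EGLN1, are on several lists, so the counts of different lists are not independent. Genes were named by size of change (the 15 largest with a mean of at least 50 and the 10 largest with a mean of at least 5000, in each direction) and by up to 6 members of a list, and further list members were named after their values were seen. Symbols of antisense transcripts were removed from gene families after a first look. Near-identical copies were not told apart. Some items are not reported here. Promoter windows and their motif matches come from RefSeq on GRCh38.p14.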

Additional observations from a re-analysis of the deposited data

Results flagged for a closer look

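Sets of 4 libraries were checked per gene and group, and in each group also for read depth and mitochondrial share. In 20 of 296 such sets the highest or lowest library lay far from the other 3. Its gap was a larger part of the set's range than Dixon's 95% critical value. Chance gives about 5% of sets. Control replicate 3 was the low library for 7 genes: CHAC1 (710 against 3114 to 3369 in the others), ADM2 (249.4 against 845 to 965), PSAT1 (8680 against 12510 to 12920), PSPH (414 against 712 to 750), MTHFD2 (12350 against 16470 to 16800), IL1A (334 against 535 to 553) and NR4A1 (1899 against 2207 to 2248). It was the high one for ZNF669 (796).

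Control replicate 2 was high for TAGLN (86.3), NDUFA2 (2032) and FARSB (16440) and low for UBL3 (1201) and CUL4B (4102). Control replicate 1 was low for COX5A (8314), and Control replicate 4 was high for ZNF331 (8.75 against 0). Within B87+DMKG, replicate 4 was high for FOSB (766) and low for DUSP6 (2886). Replicate 2 was low for BMP2 (10.7 against 33.3 to 34.8) and CCNG1 (968), and replicate 3 was low for BCL2 (151.5 against 206 to 213).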

How the results depend on the processing

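The number of rows called stayed within 1.5 times under every setting run except a minimum absolute log2 fold change of 1, which by its construction left 3391 rows (2073 up and 1318 down) of 9922 against Control, 3204 (2082 and 1122) of 9768 against DMKG and 3655 (2216 and 1439) of 10184 against B87. Leaving out 1 library at a time gave 9240 to 9662 calls against Control, 9219 to 9689 against DMKG and 9661 to 9979 against B87. Replicate numbers are shared by the groups, but same-numbered B87+DMKG and Control libraries had deviations correlated at 0.10, -0.06, 0.03 and -0.02, so the numbers were not taken as pairs, and a replicate block gave 9808, 9654 and 10093 calls. Against Control, edgeR called 9982 rows and DESeq2 10113. Of 140 called genes recomputed against Control, 4 lost the call in some setting (ACTB, MT1E, KDM3A and SPRY1), and of 27 against DMKG 1 did (MT1G). With DMKG alone 3 of 21 did (VEGFA, MT2A and MT1G), and with B87 alone TXNIP did, the 1 gene called of 5 recomputed.

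Beside the HOX and histone medians named above, medians of other lists changed sign in some setting. Among them were MAPK feedback, EGF receptor family, YAP and AHR targets, parthanatos and mitosis, all with medians near 0. Glucose sensing went from 0.144 to -0.049 with array weights. The array weights were 4.32 for B87+DMKG replicate 3 and 0.27, 0.20 and 0.54 for replicates 1, 2 and 4. Values with array weights therefore rest mostly on 1 library of that group. In addition, 4 uncalled gene results changed sign, and the cause was not tested. The median of all rows against Control, 0.0045, stayed near 0 and became -0.042 with quantile normalization, -0.061 for rows with a mean of at least 50 and 0.033 by DESeq2. GAPDH against Control was -0.05 and became 0.083 with array weights, and without 1 library it ranged from -0.095 to 0.0030 (the latter without B87+DMKG replicate 1). MYC against Control was -0.04 and became 0.064 with array weights. SLC38A2 with DMKG alone was 0.05 and became -0.0093 with quantile normalization, -0.064 with equal totals, -0.023 with array weights and -0.084 without DMKG replicates 3 and 4, and without 1 library it ranged from -0.042 to 0.143, below 0 without Control replicate 2 or 3 or DMKG replicate 4. RBM39 with DMKG alone was 0.01 and became -0.086 with quantile normalization, -0.105 with equal totals, -0.033 with array weights and -0.318 without DMKG replicates 3 and 4, which was called (limma adjusted p = 0.00055), while without DMKG replicates 1 and 2 it was 0.333 and called higher (0.00019). Without 1 library RBM39 ranged from -0.101 to 0.120, below 0 without Control replicate 1 or DMKG replicate 3 or 4. Array weights and quantile normalization called ANGPTL4 higher than Control (0.31 and 0.34), and quantile normalization SLC2A3 (0.33). Values of a few normalized reads rest on few reads, so changes of genes near the minimum mean of 10 are the least precise.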
